A study of Mus musculus with 3 samples.

Results

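Tumour organoids from ApcMin mice were compared with organoids from normal intestinal epithelium of wild-type mice, on 1 single-colour microRNA array for each. These are 2 of the 3 arrays of the study, chosen by their titles. The description covers the 437 of 1265 mouse microRNA probes that were bright, meaning that the spot on at least 1 of the 2 arrays exceeded the brightest negative control spot of its array. Of these, 386 were bright on both arrays, 24 only on the tumour array and 27 only on the wild-type array. A further 826 probes were dim, and 2 were left out because their wild-type spot was marked as bad.

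Organoids are epithelial cell cultures that fold into small hollow bodies within a gel and renew themselves from stem cells. The wild-type array held RNA of untreated organoids from normal epithelium of mice of wild-type genotype. The tumour array held RNA of untreated organoids started from intestinal tumours of ApcMin mice, whose germline carries a truncating mutation of the tumour suppressor Apc. Both cultures grew in Matrigel without serum, with R-spondin 1, EGF and Noggin, and R-spondin 1, a Wnt pathway agonist, was therefore present in the normal and the tumour cultures alike. The remaining array, of tumour organoids given 5-Aza-CdR at 1 uM, entered the normalization and is not compared here. The sources used here do not give age, sex, strain, the number of animals or the passage. With 1 array in each group there is no replicate and no p-value, and culture, RNA extraction, array and genotype cannot be told apart.

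A microRNA gene is transcribed as a long primary transcript, often together with neighbouring microRNA genes of the same cluster. The transcript is cut to a hairpin precursor, and then to a duplex whose 5p or 3p arm is loaded into an Argonaute protein. The seed, bases 2 to 8 of the mature strand, pairs with target mRNAs, so microRNAs of the same seed form a family. In the intestine, miR-192, miR-194 and miR-215 mark differentiated epithelium, the miR-200 family marks epithelial cells in general, and the miR-17-92 cluster is known as a target of MYC.

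The mature sequences that carry the main differences are shown 5′ to 3′ as listed by RefSeq on GRCm38.p6, with the seed in capitals. Of the 437 bright probes, 417 matched a RefSeq precursor and 362 a mature sequence. The first set holds the intestinal microRNAs, all lower in tumour organoids. The seed UGACCUA is shared by miR-215-5p and miR-192-5p, while miR-194-5p, encoded beside each of them, has a seed of its own.
miR-215-5p: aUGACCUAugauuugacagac
miR-192-5p: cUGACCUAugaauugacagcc
miR-194-5p: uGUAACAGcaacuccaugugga

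The second set shows how closely the lower miR-378 probes resemble one another. Up to its last base, miR-378b repeats miR-378c without the first base of the latter, so that the seed is shifted by 1 base. They share a run of 19 bases, and miR-378d shares 14 with either.
miR-378b: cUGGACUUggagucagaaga
miR-378c: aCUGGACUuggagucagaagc
miR-378d: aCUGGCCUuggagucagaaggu

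The third set holds the sequences of the highest probes, those of miR-3473a, miR-3473b and miR-3473e, and of miR-5128, which resembles them. The capitals show that their seeds only partly match although the bodies overlap. A run of 18 bases is shared by miR-3473b and miR-3473e, and 16 by miR-3473a and miR-3473b. In an overlap of 17 bases miR-5128 matches miR-3473b at 16, with the substitution C14A, counted from the 5′ end of miR-5128.
miR-3473a: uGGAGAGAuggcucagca
miR-3473b: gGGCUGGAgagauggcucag
miR-3473e: gGGCUGGAgagauggcucgua
miR-5128: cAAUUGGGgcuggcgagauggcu

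The fourth set shows members of clusters and families whose bright probes lay mostly or all on 1 side: the higher miR-23/27/24, miR-29, miR-183 and miR-125a groups, and the lower groups of miR-103, miR-16 and miR-17.
miR-23a-3p: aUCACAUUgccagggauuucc
miR-27a-3p: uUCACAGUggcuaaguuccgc
miR-24-3p: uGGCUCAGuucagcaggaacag
miR-29a-3p: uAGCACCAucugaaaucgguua
miR-29c-3p: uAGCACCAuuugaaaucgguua
miR-182-5p: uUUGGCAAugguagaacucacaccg
miR-96-5p: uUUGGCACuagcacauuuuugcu
miR-125a-5p: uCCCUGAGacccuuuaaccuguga
miR-103-3p: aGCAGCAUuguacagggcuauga
miR-107-3p: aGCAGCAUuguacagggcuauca
miR-16-5p: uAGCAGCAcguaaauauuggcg
miR-17-5p: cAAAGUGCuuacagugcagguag
miR-106a-5p: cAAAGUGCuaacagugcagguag

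The signal of a probe is given as the spot median minus the mean of the blank spots of its array, in intensity units. The difference is tumour minus wild type on the normalized log2 scale. The signals of all probes summed to 296474 on the wild-type array and 418099 on the tumour array, so the tumour array was brighter as a whole, and a probe with equal signals on both, such as let-7f-5p with 429, can have a difference below 0 (-0.46). The spike control spots did not share that gap, averaging 8786 and 8690. Scaling to the spike controls therefore moved the median difference of the bright probes from 0.03 to 0.34, and scaling to the median of all probes moved it to 0.26. The 8 spots of each spike control had a coefficient of variation of 4.8% to 10.1%, which gives a log2 difference an SD of 0.15 from spot noise alone. That SD leaves out differences between cultures, extractions and hybridisations. Brightness also depends on the probe, so signals and their sums are compared between the arrays and not between probes. For a probe bright on only 1 array the printed difference is the measured one, of which no more than the stated bound can be read. This holds also where the difference enters a count or a median. The bounds belong to the main setting and make no allowance for spot noise or other scalings. Those of 1.1-fold or less, such as 0.13 on the log2 scale for miR-125b-5p, lie within the spot noise SD.

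Among the 437 bright probes, 13 were at least 2-fold higher in tumour organoids (2.97%) and 14 at least 2-fold lower (3.2%). In either direction these were 27 probes, or 6.18%. At 1.5-fold 33 probes were higher (7.55%) and 38 lower (8.7%). At any size 236 probes were higher (54%) and 200 lower (45.8%). The differences ran from -4.22 to 2.38. In the plot of all bright probes the probes farthest below the line of equality are 5p arms of the intestinal group, led by miR-215-5p, and those farthest above it miR-3473e, miR-3473a and miR-3473b. The 27 probes kept their direction under every alternative of background and scaling except the one using the scanner's per-spot background column, which turned 9 of them. That column followed the spot itself (log correlation 0.99 on both arrays, median 84.5% and 78.0% of the spot value) and exceeded the spot for 70 and 56 probes.

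**Figure D1:**
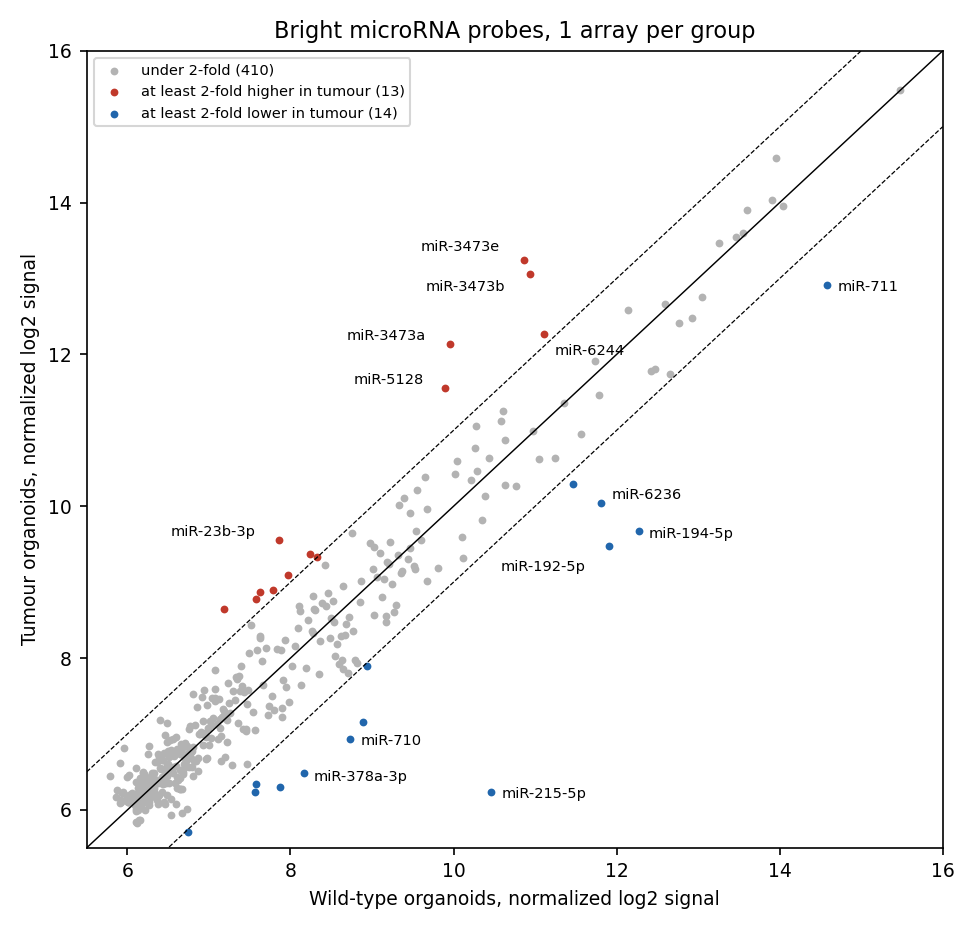
Normalized log2 signal of the 437 bright probes in wild-type organoids (x axis) and tumour organoids (y axis), 1 array each, with the line of equality and dashed lines at 2-fold. The 13 red probes are at least 2-fold higher and the 14 blue ones at least 2-fold lower in tumour organoids, with miR-215-5p farthest from the line at -4.22.

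All 7 probes of the intestinal group, the arms of miR-215, miR-194 and miR-192, lay below 0. They come from 2 clusters and 4 precursors. miR-215-5p, which p53 is known to induce, had a signal of 1241 in wild-type and 33.4 in tumour organoids, a difference of -4.22. miR-194-5p fell from 3483 to 877, a difference of -2.60, and miR-192-5p from 2210 to 800, a difference of -2.44. The tumour signals of all of these stayed above the brightest negative control, which lay 23.56 above the blank mean on the tumour array. In RNA of whole cultures, fewer cells of a type and less microRNA per cell cannot be told apart.

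The opposite arms were also lower in tumour organoids. miR-215-3p had a signal of 46.6 in wild-type and 2.75 in tumour organoids. It was bright on the wild-type array only, so its normalized signal was at least 1.57-fold lower in tumour organoids, with a measured difference of -1.04. miR-192-3p, bright on the wild-type array only as well, had 41.9 and 15.1, at least 1.49-fold lower. The 2 probes for the 3p arms of miR-194 separate its loci: miR-194-1-3p, beside miR-215 on chromosome 1, had 19 and 11, and miR-194-2-3p, beside miR-192 on chromosome 19, had 24.3 and 27.5. miR-194-1-3p was bright on the wild-type array only, so it was at least 1.05-fold lower, with a measured difference of -0.29. miR-194-2-3p was bright on both arrays, with a difference of -0.13, although its signal before normalization was higher in the tumour organoids. The 5p probe cannot separate the loci, since both precursors yield the same mature sequence.

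In position, Mir194-1 and Mir215 lie at chr1:185313319-185313692 (GRCm38.p6, plus strand), inside the span of Iars2, which is transcribed from the opposite strand. Mir194-2 and Mir192 lie at chr19:6264643-6264932 on the plus strand, within no other gene of the RefSeq table. The median difference was -1.82 over the 4 bright probes of the first cluster and -1.57 over the 4 of the second. miR-194-5p counts in each of them, and miR-215-5p and miR-192-5p differ at 3 of 21 bases (A1C, U12A and A20C, counted on miR-215-5p), so their probes may share signal. Under the per-spot background column miR-192-5p turned to 0.16 and miR-215-3p to 0.20, and the median of the 7 probes turned with them. miR-215-5p stayed at -2.48 or below under all 10 settings.

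The miR-378 family, whose first member lies within the metabolic coactivator gene Ppargc1b on chromosome 18, was lower at all 4 bright probes. The signals were 198 and 51.9 for miR-378a-3p (difference -1.67), 164 and 36.6 for miR-378c (-1.58), 123 and 32.4 for miR-378b (-1.33), and 126 and 39.9 for miR-378d (-1.24). The 5p arm, miR-378a-5p, was dim on both arrays, at 15 and 7.26. The precursors lie on chromosomes 18, 14, 11 and 10, so the 4 probes do not share a locus, but they share sequence, as shown above, and cannot be counted as independent. The per-spot background column turned miR-378c, miR-378d and miR-378b to 0.42, 0.41 and 0.02, and the family's median with them.

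The other probes at least 2-fold lower belonged to no group with a second such member. miR-711, whose precursor lies within Col7a1 on the same strand, had signals of 23203 and 9467 (difference -1.67). miR-710 on chromosome 8 had 313 and 94.7 (-1.79), and miR-3067-3p, within Smoc1, had 363 and 114 (-1.74). For miR-6236 the signals were 2145 and 1358 (-1.77), and for miR-3072-5p 1885 and 1524 (-1.17). These signals differed less than the normalized values did, because the normalization lowered the tumour array relative to the wild-type array in this range. The normalized log2 values of miR-6236 were 11.81 in wild-type and 10.04 in tumour organoids, and its difference on the authors' values was -1.1. The signals of miR-365-1-5p, which matches miR-365-2-5p (-0.35) at 20 of 23 bases and may share signal with it, were 373 and 238 (-1.04). Over the 10 settings these differences came as close to 0 as -0.13 for miR-710, -0.28 for miR-3072-5p, -0.53 for miR-3067-3p and miR-365-1-5p, and -0.62 for miR-6236, and miR-711 stayed at -1.27 or below.

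**Figure D2:**
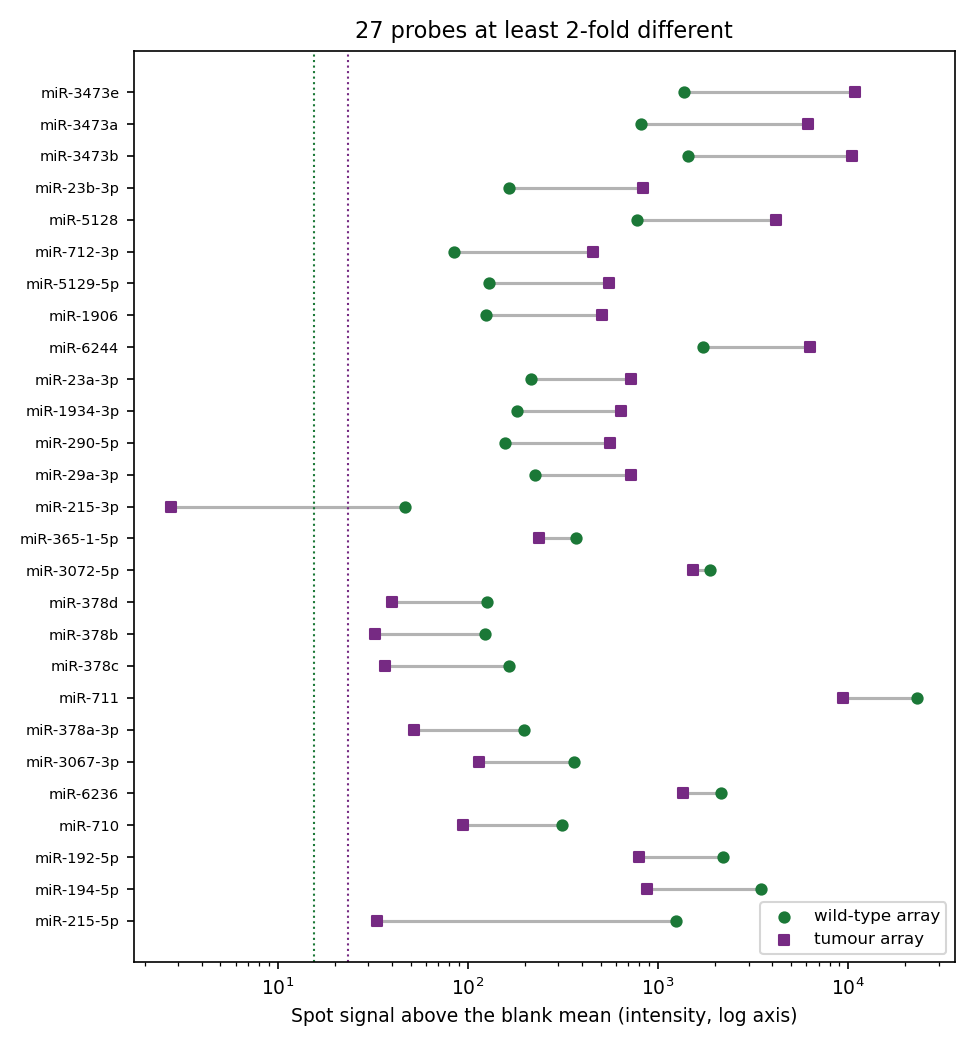
Signal above the blank mean (log axis, intensity units) of the 27 probes at least 2-fold different, with circles for the wild-type array, squares for the tumour array and dotted lines at the brightest negative control of each. The tumour spot of miR-215-3p, at 2.75, is the only point to the left of both lines.

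The highest differences belonged to miR-3473e, miR-3473a and miR-3473b. Their signals rose from 1380 to 10955 (difference 2.38), from 813 to 6166 (2.18) and from 1448 to 10521 (2.11). Mir3473e lies within Rbks on chromosome 5, Mir3473a within Syap1 on the X chromosome and Mir3473b within Ccdc162 on chromosome 10, so the probes do not share a locus. The shared stretch of miR-3473b resembles the start of the mouse B2 element, a short repeat found throughout the genome. miR-5128, within Strbp on chromosome 2 and 1 base off that stretch, rose from 775 to 4177 (1.66). A further bright probe with most of the stretch, miR-1931, matches 14 of 16 bases of miR-3473b (A8U and A10C, counted on miR-3473b), and had signals of 21.5 and 36.5, a difference of 0.06.

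Names in this group do not track sequence. miR-3473c and miR-3473d bear the family name, but their longest shared runs with miR-3473b, 12 and 8 bases, lie on the opposite strand. Their signals were 223 and 452 (difference 0.34) for miR-3473c, and 27.1 and 43.2 (0.05) for miR-3473d. The 5 probes called miR-3473 had a median of 2.11, the value of miR-3473b. Under the per-spot background column miR-3473b turned to -1.80, whereas miR-3473e and miR-3473a stayed at or above 2.26 and 2.14 under all 10 settings.

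The miR-23, miR-27 and miR-24 genes form paralogous clusters, and these microRNAs are known for roles in vessels, muscle and cell growth. Of the 6 bright probes 5 were higher. miR-23b-3p rose from 164 to 838 (difference 1.69) and miR-23a-3p from 215 to 726 (1.13). miR-24-3p had 318 and 870 (0.90), miR-27a-3p had 131 and 345 (0.66), and miR-27b-3p had 241 and 484 (0.33). The 5p arm of miR-23a went the other way, from 37.1 to 27 (-0.40), close to the background.

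In the cluster Mir23b, Mir27b and Mir24-1 (chr13:63300484-63301275), whose Mir23b lies within Aopep on the same strand, all 3 bright probes were higher, with a median of 0.90. In Mir23a, Mir27a and Mir24-2 (chr8:84208518-84208921), 3 of 4 were higher, with a median of 0.78. miR-24-3p is made by both loci and counts in both, and miR-27a-3p and miR-27b-3p share 18 bases, so the share of each locus cannot be read from these probes. The per-spot background column turned miR-23b-3p and miR-23a-3p to -1.32 and -0.73, and the median of the 6 probes with them.

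All 3 bright probes of the miR-29 family, known for targeting collagen and DNA methyltransferase mRNAs, were higher. miR-29a-3p rose from 225 to 722 (difference 1.01), miR-29b-3p had 191 and 467 (0.58) and miR-29c-3p 47.3 and 108 (0.32). The sequences of miR-29a-3p and miR-29c-3p differ by 1 substitution, C10U. Median differences were 0.79 in the miR-29a cluster on chromosome 6 and 0.45 in the miR-29c cluster on chromosome 1, which both encode miR-29b-3p. The per-spot background column turned miR-29a-3p to -0.64, and the median of its cluster with it.

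The cluster of miR-182, miR-96 and miR-183, known from sensory cells, was higher at 4 of 4 bright probes on chromosome 6. Of these, 2 were bright on both arrays. The miR-183 arms counted through the tumour array alone, which partly sets their direction. The signals were 121 and 386 for miR-182-5p (difference 0.91) and 77.6 and 224 for miR-96-5p (0.76). On the wild-type array both miR-183 arms were under the brightest negative control, at 13.1 (miR-183-5p) and 12.5 (miR-183-3p), and on the tumour array they had 48.5 and 29.0. The bounds were at least 1.3-fold and at least 1.07-fold. The per-spot background column turned miR-182-5p and miR-96-5p to -0.23 and -0.24, and the median of the cluster with them.

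The cluster of miR-99b, let-7e and miR-125a on chromosome 17, known from stem cells of several tissues, was also higher at 4 of 4 bright probes, with a median of 0.39 that turned under the per-spot background column. miR-125a-5p had 11.2 in wild-type and 80.6 in tumour organoids, at least 1.65-fold higher, and miR-99b-5p 4.97 and 48.1, at least 1.29-fold higher. Both were bright on the tumour array only, so they entered the count through the array on which they were higher. let-7e-5p was bright on both, at 56.4 and 101 (difference 0.11), as was miR-125a-3p, at 221 and 359 (0.06). Near the background, the offset of 50 in the background correction compresses a difference.

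miR-205-5p, a microRNA of stratified epithelia, was bright on the tumour array only as well, at 9.11 and 64.3, at least 1.45-fold higher. Among probes bright on the wild-type array only, the bounds after miR-215-3p were those of miR-193a-3p (45.5 and 18.5, at least 1.56-fold lower), miR-192-3p and miR-291b-5p (39.0 and 22.8, at least 1.42-fold lower). Of the 51 probes bright on 1 array, miR-215-3p alone passed 2-fold in its measured difference in the main setting, where the offset compresses differences near the background. With the blank mean subtracted others passed 2-fold too, among them miR-99b-5p (2.81), miR-125a-5p (2.33), miR-205-5p (2.25), miR-192-3p (-2.1) and miR-193a-3p (-1.94).

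The remaining probes at least 2-fold higher belong to no group with a second such member. miR-712-3p rose from 85.1 to 456 (difference 1.46), and miR-5129-5p, within Zeb2 on the same strand, from 130 to 555 (1.25). miR-1906, which has copies within Meg3 on chromosome 12 and on the X chromosome, rose from 125 to 509 (1.20), and miR-6244 from 1723 to 6319 (1.16). For miR-1934-3p the signals were 181 and 640 (1.13), and for miR-290-5p, of an embryonic stem cell cluster, 156 and 560 (1.11). The other 5 bright probes of the pluripotency list, miR-291a-5p, miR-291b-5p, miR-292-5p, miR-294-5p and miR-295-5p, lay between -0.52 and 0.29.

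Below 2-fold, the 10 next lower probes bright on both arrays lay between -0.92 and -0.69. Just under the threshold were miR-5097 (signals 4722 and 5192, difference -0.92) and miR-6394 (308 and 219, -0.90), while miR-365-1-5p at -1.04 lay just inside. miR-5097 was brighter in tumour organoids before normalization and turned positive when scaled to the spike controls or to the median of all probes. The others were miR-107-3p, miR-5114, miR-103-3p, miR-744-5p, miR-677-3p, miR-203-3p, miR-106a-5p and miR-3096b-3p. The 10 next higher probes lay between 0.69 and 0.91. After miR-182-5p and miR-24-3p they were miR-3087-5p, miR-351-3p, miR-5621-5p, miR-96-5p, miR-5122, miR-296-3p, miR-1893 and miR-709. miR-203-3p, known for promoting differentiation in skin, had signals of 96.2 and 61.4 (-0.69). The per-spot background column turned 9 of these 20 probes. They were miR-103-3p (0.19), miR-677-3p (0.19), miR-106a-5p (0.29) and miR-3096b-3p (0.38) among the lower ones, and miR-5621-5p (-2.51), miR-1893 (-1.28), miR-96-5p (-0.24), miR-182-5p (-0.23) and miR-351-3p (-0.12) among the higher ones.

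**Figure D3:**
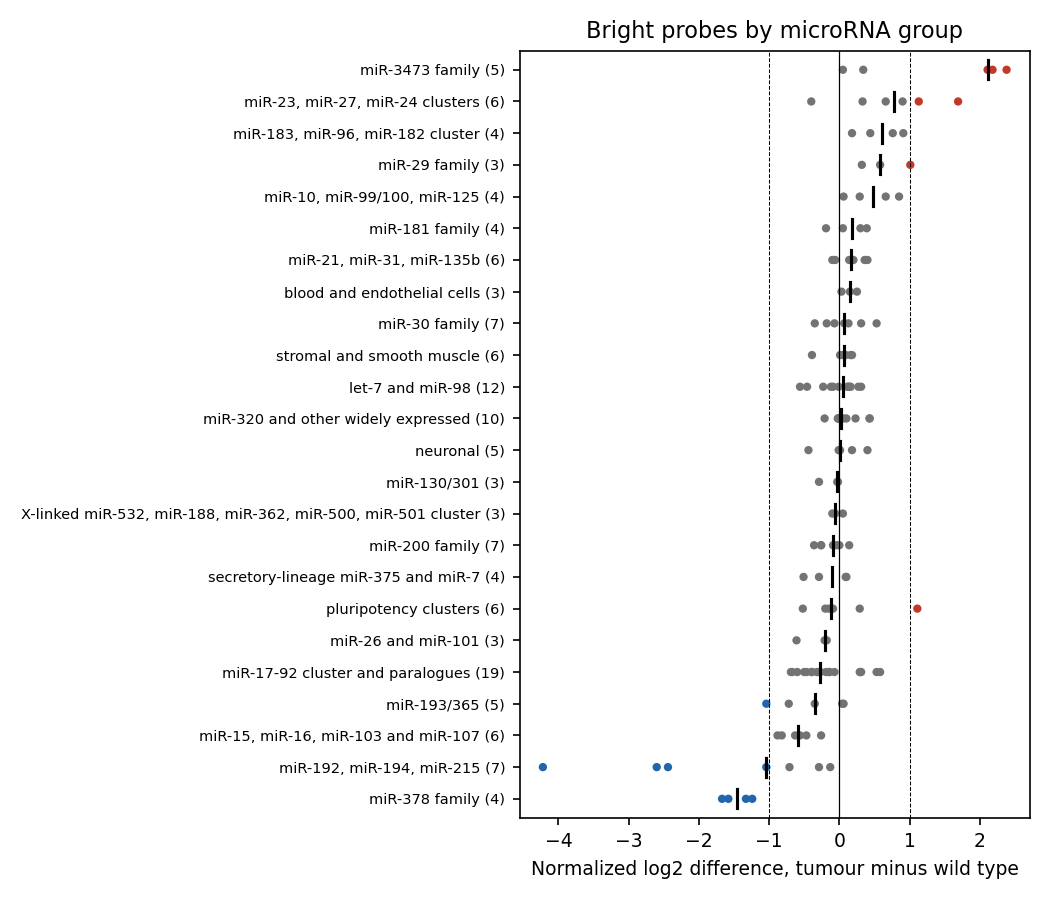
Normalized log2 difference, tumour minus wild type, of the bright probes in microRNA groups with at least 3 bright probes (number in brackets), with bars at the group median and dashed lines at 2-fold. The miR-378 and intestinal groups lie left of 0 and the miR-3473, miR-183 and miR-29 groups right of it, against a median of 0.03 over all bright probes. Under the per-spot background column the medians of the miR-378, intestinal and miR-183 groups turned.

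Several families lay on 1 side at every bright member without reaching 2-fold. The miR-15/16 and miR-103/107 families were lower at 6 of 6 bright probes. The first is known to restrain cyclins and BCL2, and the second lies in introns of pantothenate kinase genes. The list had a median of -0.60, beside 0.03 for all bright probes. The signals were 343 and 248 for miR-107-3p (difference -0.88), 334 and 257 for miR-103-3p (-0.82), and 774 and 667 for miR-16-5p (-0.63). miR-103-3p and miR-107-3p share 21 of 23 bases. miR-15b-5p and miR-15a-5p had differences of -0.56 and -0.47, and miR-195a-5p, bright on the wild-type array only, was at least 1.01-fold lower (measured difference -0.26). The signals of these probes were lower in tumour organoids before normalization too, and the list's median turned in the per-spot setting only.

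The miR-17-92 cluster on chromosome 14 was lower at 7 of 7 bright probes, with a median of -0.40. The signals of miR-17-3p, miR-19b-3p and miR-92a-3p were not lower before normalization, and the cluster's median stayed below 0 in all 10 settings. Its members miR-20a-5p (signals 745 and 604, difference -0.67) and miR-17-5p (970 and 855, -0.50) carry the seed AAAGUGC. All 6 bright probes of that seed were lower, with a median of -0.55, among them miR-106a-5p (474 and 393, -0.69) and miR-20b-5p (538 and 480, -0.60) of the X-linked paralogue. The paralogue of miR-25, miR-93 and miR-106b on chromosome 5 was not uniform. miR-93-5p and miR-106b-5p lay at -0.32 and -0.07, and miR-25-5p at 0.58.

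Over the 19 bright probes of the 3 paralogous clusters and miR-92b, 14 were lower and 5 higher. The higher ones were miR-25-5p, miR-92b-5p (0.53), miR-92a-2-5p (0.31), miR-18b-3p (0.30) and miR-363-5p (0.29). For miR-25-5p, miR-92b-5p, miR-92a-2-5p and miR-18b-3p the opposite arm was bright too and lay below 0, at -0.14, -0.19, -0.27 and -0.39. The list's median of -0.27 turned positive when scaled to the spike controls or to the median of all probes, and stayed below the median of all bright probes in all 10 settings.

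Lower members with little change before normalization included miR-26a-5p (signals 473 and 421, difference -0.61) and miR-26b-5p (101 and 113, -0.21), whose median the per-spot background column turned. The let-7 family, known for restraining growth genes such as Hmga2, was split. Of 12 bright probes of let-7 and miR-98, 6 were higher and 6 lower. let-7g-5p lay at -0.56 and let-7f-5p at -0.46, and let-7c-5p at 0.31, and the list's median of 0.05 turned under cyclic loess and the per-spot column. The miR-30 family was split as well, with miR-30b-5p at 0.53 and miR-30e-5p at -0.35.

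By genomic cluster, 35 clusters held at least 2 bright probes of different precursors. Precursors within 10000 bases of each other on a strand were joined. All bright members were higher in 12 clusters and lower in 6. Counting only probes bright on both arrays, these were 11 and 6. Some probes count in 2 clusters, since loci such as Mir194-1 and Mir194-2, Mir16-1 and Mir16-2 or Mir29b-1 and Mir29b-2 make the same mature sequence. Beside those above, the higher clusters included miR-296 and miR-298, imprinted genes on chromosome 2. The signals were 872 and 1864 for miR-296-5p (0.55) and 51.2 and 167 for miR-296-3p (0.72), while miR-298-5p lay at 0.05, and the per-spot background column turned the cluster's median. miR-181c-5p and miR-181d-5p were bright on the tumour array only, while miR-181a-5p and miR-181b-5p, from other loci, had differences of -0.19 and 0.05. The miR-181c and miR-181d cluster, counted among the 12 higher, thus had no probe bright on both arrays.

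The large imprinted microRNA cluster on chromosome 12, from Mir379 to Mir3072, had 11 bright members of 75 probes. Their median was -0.01, which turned on the authors' values and when scaled to the spike controls or to the median of all probes. Only miR-3072-5p among them passed 2-fold, and without it the members lay between -0.50 (miR-667-5p) and 0.15. Scaling to the spike controls left 23 clusters all higher and 3 all lower, so these counts depend on the scale.

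**Figure D4:**
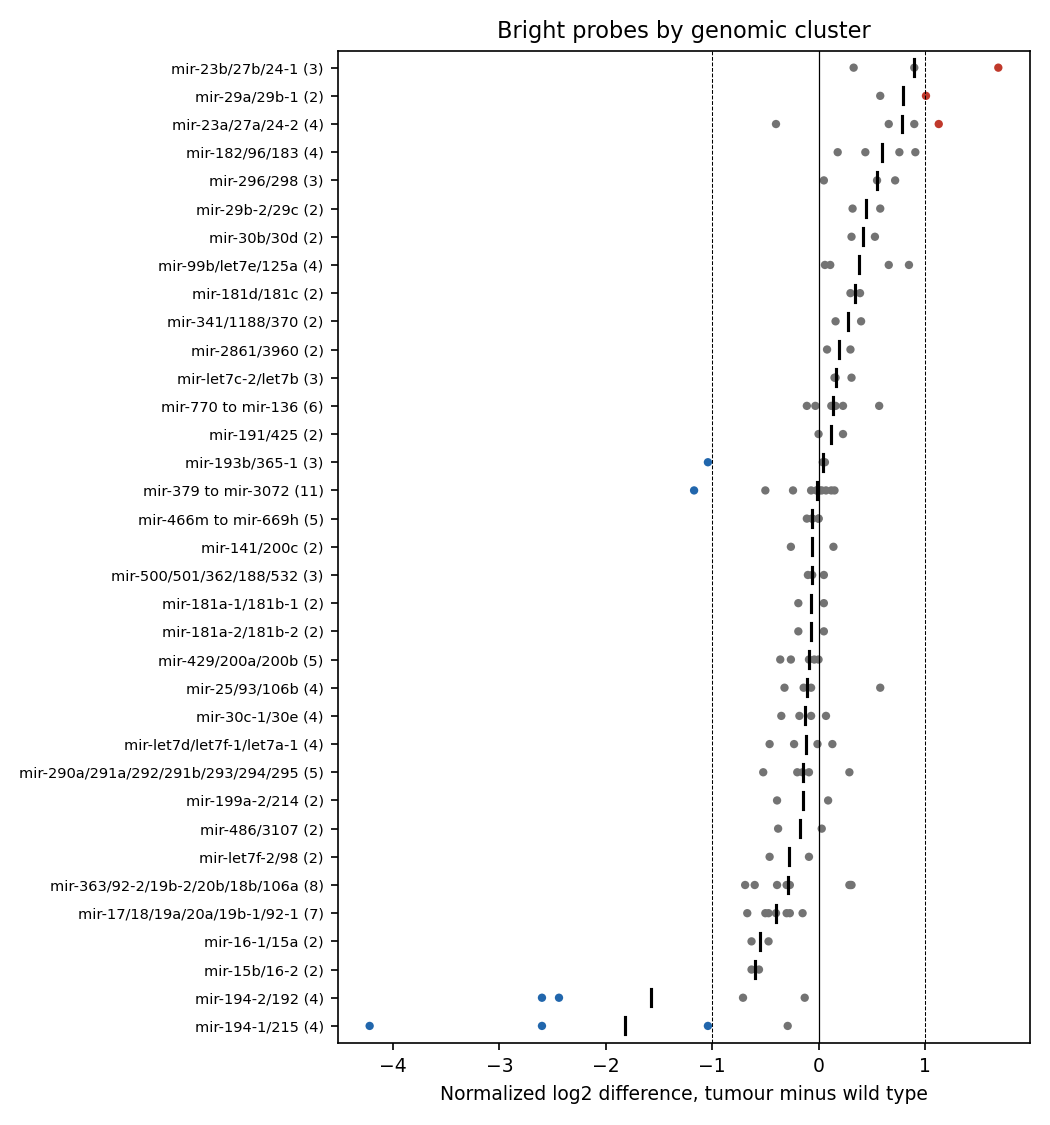
Normalized log2 difference of each bright probe in the 35 genomic clusters (number of bright probes in brackets), with a bar at the cluster median, ordered by that median. The clusters of miR-194 with miR-215 and miR-192 lie lowest, at -1.82 and -1.57, and the cluster of miR-23b, miR-27b and miR-24-1 highest, at 0.90, a median that the per-spot background column turned.

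By precursor, 68 hairpins had both arms bright. Both arms were higher in 23 and lower in 14, and in 31 they lay on opposite sides of 0. In 54 hairpins both arms were bright on both arrays, and in 27 of these they lay on the same side. In the others an arm counted through 1 array alone, which partly sets its direction. In 22 precursors the arms differed from each other by at least 1.5-fold, and in 15 of these the arms also lay on opposite sides. The intestinal precursors had 3p arms close to the background, where the offset compresses a difference. In the main setting mir-215 lay at -4.22 (5p) and -1.04 (3p), and with the blank mean subtracted at -5.72 and -4.78. For mir-192 these values were -2.44 and -0.71, and then -2.52 and -2.1. The arms of mir-194-1 and mir-194-2 stayed farther apart with the blank mean subtracted, at -2.68 (shared 5p), -1.32 and -0.38 (3p). Apart from the intestinal precursors and mir-23a, the widest gaps were those of mir-3067 (5p -0.06, 3p -1.74), mir-3072 (5p -1.17, 3p 0.15), mir-365-1 (5p -1.04, 3p 0.06) and mir-1934 (5p 0.16, 3p 1.13). mir-5620 (5p -0.31, 3p 0.54), mir-5621 (5p 0.78, 3p -0.06) and mir-652 (5p 0.44, 3p -0.37) followed, with mir-125a (5p 0.85, 3p 0.06) and mir-3090 (5p 0.64, 3p -0.11). The 5p arms of mir-3067 and mir-125a and the 3p arm of mir-3090 were bright on 1 array only. In mir-5620, mir-5621 and mir-3090 both arms had higher signals in tumour organoids before normalization.

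Smaller gaps of at least 1.5-fold with arms on opposite sides were found in mir-25 (5p 0.58, 3p -0.14), mir-92b (0.53 and -0.19), mir-18b (-0.39 and 0.30), mir-149 (0.04 and -0.64) and mir-375 (0.10 and -0.51). The same was true of mir-3104 (-0.05 and 0.56), mir-6392 (-0.30 and 0.31) and let-7f-1 (-0.46 and 0.13). miR-6392-5p was bright on the wild-type array only, at least 1.22-fold lower. In mir-25, mir-92b, mir-149 and mir-3104 both arms had higher signals in tumour organoids before normalization. For mir-149 these were 28.1 and 44.0 (5p) and 3719 and 5215 (3p). The arms of these precursors lay on opposite sides on the normalized scale only. In other precursors the arms were alike. In mir-31, raised in colorectal tumours in earlier work, the signals were 258 and 553 for the 5p arm (0.40) and 28.5 and 73.8 for the 3p arm (0.36). In mir-21a they were 1214 and 1922 (0.20), and 14.6 and 30.2 for the 3p arm, bright on the tumour array only and at least 1.08-fold higher (0.14).

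Across the 68 precursors the differences of the 2 arms had a Pearson r of 0.33 and a Spearman rho of 0.14, as a description. Without the 4 intestinal precursors r was -0.02 over 64. The points share 2 arrays, and many opposite arms lie near the background, where the offset compresses a difference. Some 5p probes serve 2 precursors.

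**Figure D5:**
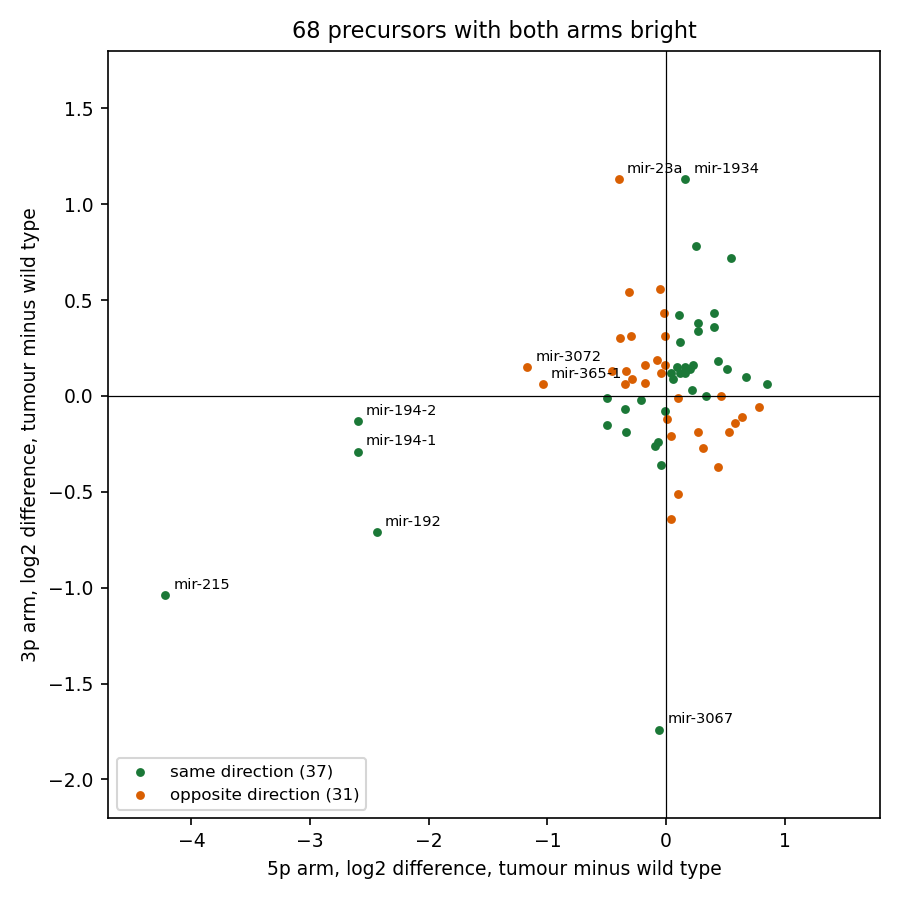
Normalized log2 difference of the 5p arm (x axis) and of the 3p arm (y axis) for the 68 precursors with both arms bright; green points lie on the same side of 0 on both axes (37) and orange points on opposite sides (31). The intestinal precursors at lower left set the correlation of 0.33, which is -0.02 without them.

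Arms, cluster neighbours and seed sharers can be set side by side by the gap between the differences of 2 probes. The median gap was 0.36 over all 95266 pairs of bright probes and 0.35 over the 68 arm pairs. It was 0.24 over 201 pairs from different precursors of a cluster and 0.28 over 115 pairs with the same seed. Both probes lay on the same side of 0 in 54.4% of arm pairs, 61.7% of cluster pairs, 66.1% of seed pairs and 47630 of the 95266 pairs in all. Restricted to pairs with signals over 50 on both arrays, the shares were 33.3% (15 arm pairs), 74.3% (70 cluster pairs), 68.3% (63 seed pairs) and 49.6% (25425 pairs of all kinds). Pairs reuse probes, some count under cluster and seed alike, and no test was made.

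Among the 29 seed families with at least 2 bright members, all members were higher in 7 and lower in 14. Families without a uniform side included let-7 (seed GAGGUAG, 4 of 10 higher), the miR-181 family (ACAUUCA, 3 of 4 higher) and the miR-125 seed CCCUGAG. In that family miR-351-5p was higher, at 0.25, while miR-6394 lay at -0.90. miR-125a-5p and miR-125b-5p, bright on the tumour array only, were at least 1.65-fold and at least 1.1-fold higher. Under scaling to the spike controls 17 seed families were all higher and 4 all lower.

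Base composition of the mature sequence moved with the difference in the main setting, and hardly so under the per-spot background column. Of 362 bright probes with a sequence, the 124 of lowest GC content (31.8% to 52.2%) were higher in 41.1% of cases, with a median difference of -0.07. The middle 119 were higher in 52.9%, with a median of 0.05, and the 119 of highest GC content (62.5% to 100%) in 69.7%, with a median of 0.11. The rank correlation of GC content with the difference was 0.24 across these probes, which are not independent replicates. It was 0.22 to 0.31 in 8 other settings and 0.08 under the per-spot background column, where the medians from the lowest to the highest GC content were -0.02, 0.03 and 0.01. The part of base composition in the group differences was not tested. The 186 bright probes with names numbered 1000 or above had a median GC content of 61.9%, against 52.2% for the lower-numbered ones. They held 8 of the 13 probes past 2-fold higher, which is 4.3% of them beside 2.97% of all bright probes. They held 3 of the 14 past 2-fold lower, which is 1.61% beside 3.2%.

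The cell types that the cultures could hold were read from marker microRNAs, beside 34.5% of all 1265 probes that were bright. The miR-200 family of epithelial cells was bright at 7 of 10 probes on both arrays, with summed signals of 4197 and 5123 and a median difference of -0.09, which turned positive when scaled to the spike controls or to the median of all probes and under the per-spot background column. The intestinal markers were bright at 7 probes on the wild-type array and 4 on the tumour array, with summed signals of 7066 and 1767. Markers of secretory and endocrine cells, miR-375 and miR-7, were bright at 3 of 7 probes on the wild-type array and 4 on the tumour array. Their summed signals were 313 and 394, with a median difference of -0.1, which turned in the same settings as that of the miR-200 family. The sums are not normalized, and the tumour array was brighter as a whole.

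Markers of cells outside the epithelium were read in the same way. Stromal markers were bright at 4 of 10 probes (summed signals 138 and 171, median difference 0.05). These were miR-143-5p (32.5 and 46.6), miR-214-3p (42.6 and 35.5), miR-199a-5p (15.6 and 28.4) and miR-199b-5p (14.5 and 31.7). The last was bright on the tumour array only. miR-145a-5p, a smooth muscle marker, had signals of 4.77 and 4.01, and miR-143-3p 9.75 and 2.40, below the brightest negative control. Of the blood cell markers 3 of 12 probes were bright (summed signals 378 and 624, median difference 0.15), led by miR-486-3p at 265 and 410. miR-142-3p, miR-223-5p and both miR-144 arms were undetected on both arrays. miR-223-3p of myeloid cells had 20.7 and 41.9 (difference 0.15). Neither probe of the endothelial miR-126 was bright. The striated muscle markers were bright at 2 of 9 probes, with summed signals of 61.8 and 115 and a median difference of 0.12. Neuronal markers were bright at 4 of 10 probes, all of miR-128 or miR-129, with a median difference of 0.09. Their summed signals were 1793 and 2158, and most of each came from miR-128-2-5p, at 1666 and 1916. The miR-124 and miR-9 probes were dim on both arrays, with miR-124-3p at 3.33 and 3.0 and miR-9-5p at 2.41 and 2.5. miR-128-3p was dim as well, at 8.76 and 13.5.

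Some microRNAs studied in intestinal tumours showed small differences or none above background. miR-34a-5p, induced by p53, had signals of 105 and 233 (difference 0.49), a difference that the per-spot background column turned. miR-210-3p, induced by hypoxia, had 345 and 489 (-0.12). miR-135b-5p was dim on both arrays, at 3.31 and 5.77. miR-221-3p lay at -0.23, which turned positive when scaled to the spike controls or to the median of all probes, and miR-148a-3p at -0.41. miR-375-3p, of endocrine cells, had 86.7 and 70.1 (-0.51). A panel of widely expressed microRNAs, among them miR-191-5p, miR-423-5p and miR-320-3p, had a median of 0.03 over 10 bright probes, which turned under cyclic loess.

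The probes named for their high signals on both arrays had differences between -0.08 and 0.63. They were miR-5100 (-0.08), miR-2137 (0.00), miR-6366 (0.05), miR-3960 (0.08), miR-3968 (0.14), miR-5109 (0.22), miR-2861 (0.30) and miR-5126, with signals of 16772 and 30975 (0.63). miR-762, named for the wild-type array, had 6721 and 9278 (-0.29). Quantile normalization gives the brightest probe of each array the same value. The 0.00 of miR-2137, the brightest on both, was therefore fixed in advance, and on the authors' values its difference was -0.38. The other differences named here likewise follow from the ranks of the probes.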

How the data were processed

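MicroRNA levels were read from 1 array each of wild-type, tumour and 5-Aza-CdR-treated tumour organoids, grouped by title. Per the labels' protocols, the RNA came from a mirVana extraction and carried the dye Hy5. The deposited scanner intensity is the median of a spot at the lowest of 3 gains, per the file headers, with no background subtracted. The authors' deposited value table holds a second intensity. From the values it is linear in the spot median less the blank mean (largest residual 1.32e-05), with a median of 25 over the listed probes, and it lists only spots over the blank mean plus 2 SD. It is linear in scale and not centred by gene, and its direction per array is that of the spots. The sources used here do not name the platform or the database release.

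Bad spots were dropped. limma 3.58.1 in R 4.3.3 applied normexp on the 1664 blank spots (5% trimmed at each end for the blank mean) with an offset of 50, then quantile normalization of the 1265 probes over the 3 arrays, and log2. The rest used Python 3.11.15 with matplotlib 3.10.9, scipy 1.17.1, pandas 2.3.3 and numpy 2.4.6. Over the blank mean plus 2 SD were 954 wild-type and 962 tumour probes, and over the brightest negative control 413 and 410. Precision is limited by the number of arrays, 1 per group, and no test was made. A bound for a probe bright on 1 array takes the lowest bright signal of the other array. RefSeq tables on GRCm38.p6 gave precursors for 1212 of 1252 single-name probes. They give gene spans but neither exons nor introns. The normalization was tested on simulated arrays that had no built-in difference in overall brightness, unlike the arrays here. The later steps were not tested in this way. The probes described, the microRNA lists and the choice of blank spots over the scanner's own background column were made with earlier results of these data known. Named were all bright probes past 2-fold, the 10 next in each direction, the 10 brightest of each array, and members of precursors, clusters, seed families and lists.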

Additional observations from a re-analysis of the deposited data

How the results depend on the processing

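Counts, differences of named probes and group medians were recomputed with an offset of 16, with the blank mean subtracted, with 4 other scalings, over 2 arrays only, with the background column of each spot, on the authors' values and with other limits. Cyclic loess was chosen after seeing the data. Arm correlations and marker sums were not recomputed, and gaps between paired probes only with the blank mean subtracted (median 0.56 for arms, 0.36 for cluster neighbours, 0.42 for seed sharers and 0.61 for all pairs). The 13 higher and 14 lower probes became 30 and 28 with the blank mean subtracted, 35 and 23 with the authors' values, 20 and 27 with the per-spot column, and 33 and 38 at 1.5-fold. The higher count was 32 when scaled to the median of all probes, and scaling to the spike controls gave 37 and 9. Of the 27 probes, 13 higher and 9 lower passed 2-fold under the spike controls as well, and 4 and 4 under the per-spot column. Clusters with every bright member higher, 12 at first, were 20 (median of all probes), 23 (spike controls) and 6 (per-spot column). Those with every member lower, 6 at first, were 10 (median of probes bright on all 3 arrays), 3 (median of all probes), 3 (spike controls) and 10 (cyclic loess). Seed families all higher, 7 at first, were 15 (median of all probes) and 17 (spike controls), and those all lower, 14 at first, were 5 (median of all probes), 4 (spike controls) and 4 (per-spot column). Arm pairs on the same side numbered 37 of 68, and 27 of 54 where both arms were bright on both arrays. Over the blank mean plus 2 SD they were 186 of 328, a larger set by construction. The cause of the other moves was not tested.

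The per-spot column reversed miR-378b (0.02), miR-192-5p (0.16), miR-215-3p (0.20), miR-378d (0.41), miR-378c (0.42), miR-29a-3p (-0.64), miR-3473b (-1.80), miR-23b-3p (-1.32) and miR-23a-3p (-0.73). Among single probes and group medians, 773 recomputed values moved by less than the spot noise SD of 0.15 and 652 by more. No paired analysis was possible because each group has 1 array, and leaving out an array would leave no comparison. Probes under the brightest negative control have only a bound, also where a measured difference is printed.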
